A study of Mus musculus with 10 samples.

Results

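The genes described here are 10 members of the matrix metalloproteinase system, 7 metalloproteinase genes (Mmp2, Mmp3, Mmp9, Mmp13, Mmp14, Mmp19 and Mmp23) and 3 genes of their tissue inhibitors (Timp1, Timp2 and Timp3). They were picked by name from the 41743 gene names in the count tables, with earlier results of these data known, and all 10 were found in every library. Messenger RNA was sequenced from K7M2, a mouse osteosarcoma cell line, in 10 libraries from 5 lines with 2 libraries each and no treatment. Parental K7M2 cells kept their own ezrin, a protein that links the cell membrane to actin. The other 4 lines carried a CRISPR/Cas9 disruption of ezrin, labelled Ezrin -/-, and were then stably transfected with an empty vector or with an ezrin cDNA, which was wild type or carried the change T567A or T567D. The changed threonine is a phosphorylation site of ezrin; alanine at this site cannot be phosphorylated, and aspartate is used to mimic the phosphorylated form.

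Each construct was present in 1 stable line, and the titles of the 4 derived lines share the tag col3, so a construct and the line that carries it cannot be told apart. All 4 derived lines share the disruption and a transfection that parental cells did not have, so none of these can be told apart in a comparison with parental cells. No label states whether both libraries of a line were grown as separate cultures, and the p-values then measure only the spread between libraries. In bulk RNA, fewer cells of a type and less RNA per cell cannot be told apart.

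Matrix metalloproteinases are zinc-dependent enzymes that cut collagens, gelatin, fibronectin and other matrix proteins. Most are made as inactive zymogens and are switched on outside the cell or at its surface by other proteases, among them plasmin and other metalloproteinases. The TIMP proteins bind the active site and block it, and TIMP2 also helps MMP14 to activate the MMP2 zymogen. In bone, MMP13 is a main collagenase of osteoblasts and cartilage cells, and MMP9 is known from osteoclasts and from invasive tumours.

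The start regions of 5 genes are shown because Mmp3, Mmp13 and their neighbour Mmp10 moved in the same direction against parental cells, and because Mmp14 and Timp1 have a different kind of start region and moved in opposite directions. Each is the 250 bases before the RefSeq start site on build GRCm38.p6. In Mmp13, Mmp3 and Mmp10 the capitals mark the AP-1 letters TGANTCA, the target of Fos and Jun proteins, and in Mmp14 and Timp1 they mark the GC box GGGCGG, read on either strand, which SP1 binds.
Mmp13 (chr9:7272264-7272513, plus strand): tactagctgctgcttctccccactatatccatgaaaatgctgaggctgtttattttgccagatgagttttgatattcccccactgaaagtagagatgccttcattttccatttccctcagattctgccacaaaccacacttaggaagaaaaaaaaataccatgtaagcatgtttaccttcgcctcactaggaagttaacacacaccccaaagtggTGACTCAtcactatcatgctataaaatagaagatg
Mmp3 (chr9:7445572-7445821, plus strand): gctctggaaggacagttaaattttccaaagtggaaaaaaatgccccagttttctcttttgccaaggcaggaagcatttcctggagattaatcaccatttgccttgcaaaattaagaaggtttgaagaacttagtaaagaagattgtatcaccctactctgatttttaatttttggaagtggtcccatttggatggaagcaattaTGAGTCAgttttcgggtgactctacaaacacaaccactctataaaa
Mmp10 (chr9:7502092-7502341, plus strand): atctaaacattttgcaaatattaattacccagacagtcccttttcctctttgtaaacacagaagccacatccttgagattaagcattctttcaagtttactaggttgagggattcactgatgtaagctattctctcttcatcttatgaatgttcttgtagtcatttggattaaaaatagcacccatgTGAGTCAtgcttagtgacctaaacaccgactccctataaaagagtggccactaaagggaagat
Mmp14 (chr14:54431348-54431597, plus strand): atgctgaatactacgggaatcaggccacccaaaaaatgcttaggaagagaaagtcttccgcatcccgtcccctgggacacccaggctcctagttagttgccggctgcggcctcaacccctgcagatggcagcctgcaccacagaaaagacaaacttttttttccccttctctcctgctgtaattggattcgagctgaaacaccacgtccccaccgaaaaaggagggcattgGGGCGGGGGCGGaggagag
Timp1 (chrX:20869916-20870165, plus strand): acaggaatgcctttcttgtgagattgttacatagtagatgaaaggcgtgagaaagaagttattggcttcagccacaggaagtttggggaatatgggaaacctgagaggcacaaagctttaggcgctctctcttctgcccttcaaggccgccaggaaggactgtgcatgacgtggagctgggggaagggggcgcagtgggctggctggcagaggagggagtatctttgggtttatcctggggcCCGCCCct

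The RefSeq table held windows for 7 of the 10 members, and Mmp2, Mmp9 and Mmp19 are named only. TGANTCA, which is its own reverse complement, was present in 2 of those 7, Mmp13 at 35 bases and Mmp3 at 46 bases before the start, against 6.7% of all 32851 windows of 250 bases. GGGCGG was present in 4 of the 7 (Mmp14, Timp1, Timp2 and Timp3), against 32.7% of all windows. The ETS letters GGAAG, which occur on either strand of 64.1% of all windows, were present in all 7. All 3 were searched on both strands, and none of them contains another. These matches are letters in a window and not measured binding.

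Total counts ran from 14679424 to 18230763 per library, so 3 counts, used as the detection floor, equal 0.165 to 0.204 CPM (counts scaled to library size). Ezr checked the labels: its mRNA stood at 164 and 166 CPM in parental libraries, 72.4 and 72.9 CPM with the empty vector and 181.5 to 253 CPM in the 3 lines given ezrin cDNA, so the disrupted line still held Ezr transcript. Among those 3, Ezr was lower in T567D than in wild type by 0.27 on the log2 scale (edgeR adjusted p = 0.032). It was higher in T567A than in T567D by 0.38 (edgeR adjusted p = 4.96e-05). The part of this Ezr difference in the other values was not tested. The first principal component, with 57.9% of the variance, set parental libraries apart, and the second, with 19.6%, set T567A libraries apart. T567A libraries had 1.90% and 1.44% mitochondrial counts, against 0.844% to 1.33% in the other 8, and the largest difference between their own 2 libraries (chi-square per degree of freedom 8.45, against 2.445 to 4.35 in the other lines); the part of these in the T567A values was not tested. The labels call the cells an osteoblast osteosarcoma, and of 8 osteoblast markers Runx2, Col1a1, Spp1 and Alpl were present at 1 CPM or more, while the other 4, Sp7, Bglap, Ibsp and Dmp1, were under 1 CPM in every line.

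Against parental cells 9 of the 10 members differed in each of the 4 derived lines, 6 higher (Mmp3, Mmp9, Mmp13, Mmp14, Mmp19 and Timp2) and 3 lower (Mmp2, Timp1 and Timp3). Mmp23 was lower as well, but it reached the level of the filter on low counts in parental libraries only. Its derived libraries therefore had to lie below the parental ones, and it is left out of this count. These are calls of edgeR's quasi-likelihood test at a Benjamini-Hochberg adjusted p under 0.05, over 12595 genes. For each of these 9 members the 8 derived libraries lay outside the range of the 2 parental ones. The share of all tested genes that separate in this way was not counted, so the separation cannot be read as particular to these members. Among all tested genes, 27.4% were called higher and 27.2% lower in the empty-vector line, 27.7% and 28.5% in the wild-type line, 31.4% and 30.7% in the T567A line, and 27.1% and 28.2% in the T567D line. The median size of the log2 fold change of these 9 members was 1.73 in the empty-vector line, against 0.30 over all tested genes. The 4 comparisons share the same 2 parental libraries, so they do not repeat the finding independently of each other.

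**Figure D1:**
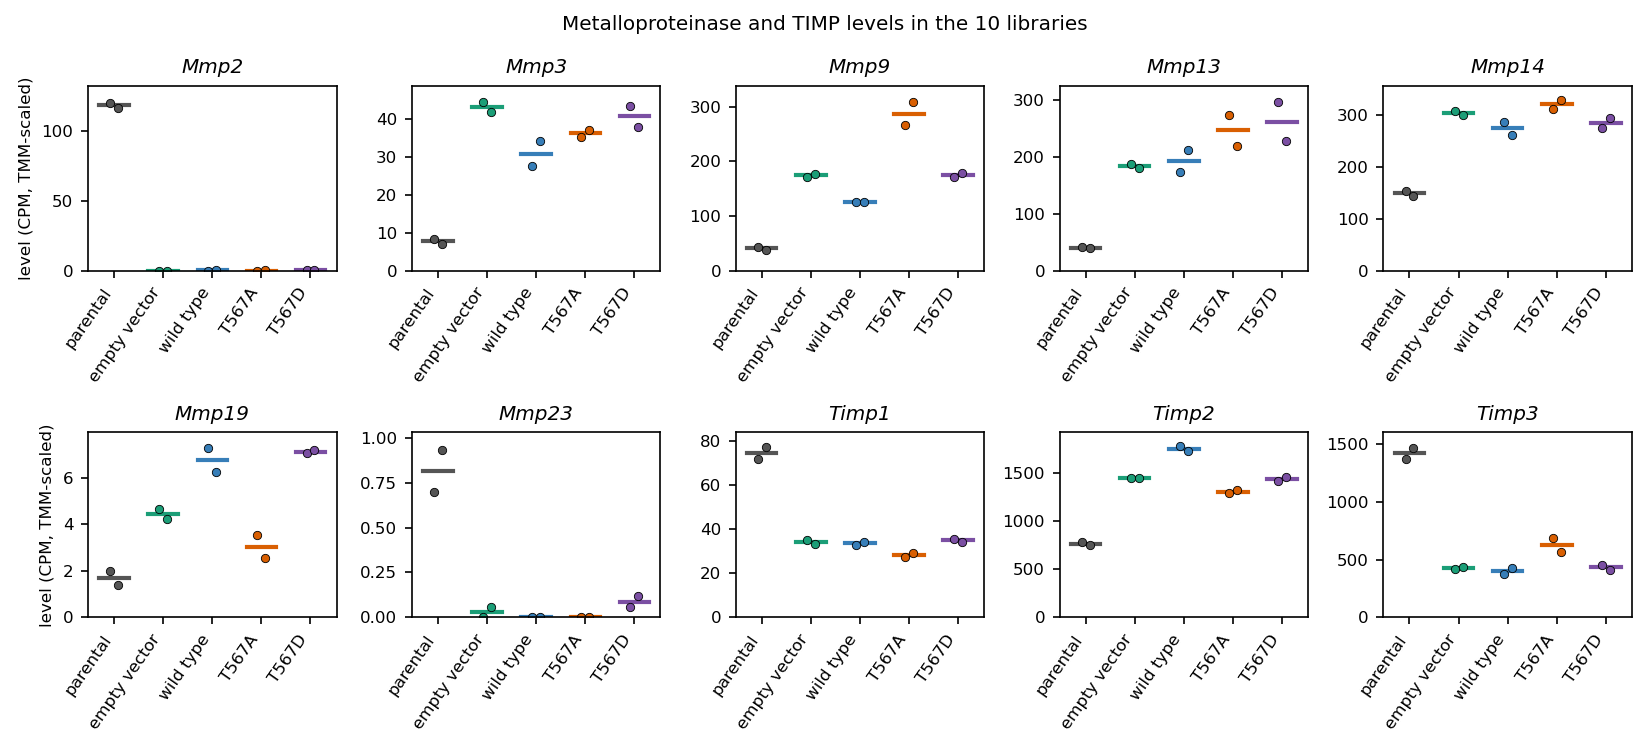
Levels in CPM (linear axes from 0, scaled by the TMM method) of the 10 members in the 10 libraries, with a point per library and a line at the mean of the 2. The parental points stand apart in every panel, above the derived lines for Mmp2, Mmp23, Timp1 and Timp3 and below them for the other 6.

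MMP13 is a collagenase that cuts fibrillar collagen. With the 2 libraries of each line given in the order of their replicate numbers, here and for every gene, Mmp13 stood at 41.8 and 39.2 CPM in parental libraries, 187 and 181 with the empty vector, 174 and 212 with wild-type ezrin, 273 and 219.9 with T567A and 296 and 228 with T567D. Every derived library lay above both parental ones by a wide gap, while the derived libraries spanned 174 to 296 CPM with wide gaps between the 2 libraries of the wild-type, T567A and T567D lines. The log2 fold change against parental cells was 2.19 ± 0.18 (SE) in the empty-vector line, a 4.55-fold increase (edgeR adjusted p = 2.78e-05), and between 2.25 and 2.69 in the other 3. No comparison among derived lines was called. The nearest were T567A minus empty vector at 0.42 ± 0.16 (edgeR adjusted p = 0.067) and T567D minus empty vector at 0.51 ± 0.16 (edgeR adjusted p = 0.072), each of which passed the threshold under 9 of 19 alternative settings, with adjusted p from 6.3e-04 to 0.342 and from 2.8e-04 to 0.266. The first passed without wild-type replicate 1 or 3 (0.0394 and 0.0391) and without T567D replicate 1 or 3 (0.00956 and 0.00969), and the second without wild-type replicate 1 or 3 (0.0398 and 0.0396) and without T567D replicate 3 (0.00833). T567A minus wild type, at 0.35 ± 0.16 (edgeR adjusted p = 0.125), passed without T567D replicate 1 or 3 (0.0262 and 0.0264).

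MMP14 is a membrane-anchored collagenase that also activates the MMP2 zymogen. Mmp14 stood at 154 and 144 CPM in parental libraries, 307 and 299.5 with the empty vector, 287 and 261 with wild-type ezrin, 312 and 329 with T567A and 275 and 294 with T567D. The derived libraries spanned 261 to 329 CPM, all above the parental ones, with the T567A line highest and not overlapping any other line. It rose by 1.03 ± 0.065 on the log2 scale (2.03-fold) in the empty-vector line (edgeR adjusted p = 1.83e-11). Although its libraries were highest, T567A did not differ from empty vector beyond the test (log2 difference 0.081 ± 0.064, edgeR adjusted p = 0.3125). T567A exceeded wild type by 0.23 ± 0.064 (edgeR adjusted p = 0.0076) and T567D by 0.17 ± 0.064 (edgeR adjusted p = 0.034). The first of these was lost without wild-type replicate 3 (adjusted p = 0.159). The second was kept in 7 of 19 alternatives and was lost without either empty-vector library (adjusted p = 0.0584 without replicate 2 and 0.0585 without replicate 3), without either wild-type library (0.0521 without replicate 1 and 0.0516 without replicate 3), without T567A replicate 3 (0.14) and without T567D replicate 1 (0.258).

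MMP2 and MMP9 are the gelatinases, which cut denatured collagen and type IV collagen of basement membranes, and they moved in opposite directions. Mmp2 had 2068 and 2004 counts (120.2 and 117 CPM) in parental libraries, 1 and 0 with the empty vector, 3 and 5 with wild-type ezrin, 1 and 5 with T567A and 13 and 12 with T567D. Parental cells thus held nearly all of this transcript, and among the derived lines the T567D libraries were the highest, above the 6 others without overlap. Mmp2 reached the level of the filter in both parental and both T567D libraries and in none of the other 6. The ratio of parental to empty-vector counts, scaled for depth, was 4148 (exact 95% interval 744 to 1.639e+05), to wild type 514 (261 to 1192), to T567A 641 (294 to 1748) and to T567D 163 (110 to 253). These intervals cover counting error only.

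The Mmp2 differences among derived lines rest on 0 to 13 counts per library. T567D exceeded the empty-vector line 25.4-fold by counts (95% interval 4.16 to 1043; edgeR adjusted p = 4.5e-04) and the T567A line 3.93-fold (1.57 to 11.7; edgeR adjusted p = 0.0055). The second call was lost without T567A replicate 2 (log2 difference -1.36, T567A minus T567D). It was also lost with the replicate number as a block (edgeR adjusted p = 0.0623). T567D exceeded wild type 3.15-fold by counts (1.38 to 8.08), and edgeR did not call it (adjusted p = 0.128). The wild-type and T567A lines did not differ from the empty-vector line beyond the test (edgeR adjusted p = 0.070 and 0.074), although T567A did without its replicate 2 (adjusted p = 0.0348).

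Mmp9 stood at 43.1 and 38.7 CPM in parental libraries, 171 and 178 with the empty vector, 126 and 126 with wild-type ezrin, 266 and 308 with T567A and 172 and 179.7 with T567D. No T567A library overlapped any other line, the wild-type libraries lay lowest of the derived ones, and the empty-vector and T567D libraries overlapped. In the order parental, wild type, empty vector, T567D and T567A, only the neighbours empty vector and T567D did not differ beyond the test (log2 difference 0.012 ± 0.070, edgeR adjusted p = 0.932). The log2 fold change was 2.09 ± 0.078 with the empty vector relative to parental cells (4.26-fold, edgeR adjusted p = 3.05e-15) and 2.81 ± 0.078 in the T567A line (7.02-fold, edgeR adjusted p = 1.95e-17).

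Mmp9 differed in 5 of the 6 comparisons among derived lines, and these 5 calls held under all 19 alternatives. Wild type was lower than empty vector by 0.47 ± 0.071 on the log2 scale (edgeR adjusted p = 1.2e-04). T567A was higher than wild type by 1.19 ± 0.071, which is 2.28-fold (edgeR adjusted p = 2.62e-11). T567D was higher than wild type by 0.48 ± 0.071, which is 1.39-fold (edgeR adjusted p = 8.6e-04). T567A was also higher than T567D by 0.71 ± 0.070 and than the empty vector by 0.72 ± 0.070 (edgeR adjusted p = 5.9e-08 and 3.91e-08). Both lines with a substituted ezrin stood above the wild-type line, as the empty-vector line also did, and T567A stood above T567D.

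Osteoclasts, macrophages and neutrophils are other known sources of Mmp9, and their markers were read beside it. Of 8 macrophage and osteoclast markers, Adgre1 was at 0 in all 10 libraries, Tyrobp had at most 1 count and Ptprc at most 0.414 CPM. The summed level of this list was 1188 to 1194 CPM in parental cells and 1344 to 1684 CPM in derived lines, nearly all of it Csf1r (1176 to 1681 CPM). Ctsk, the collagen-degrading protease of osteoclasts, was 9.42 and 8.11 CPM in parental cells and under 1 CPM in derived lines. Cd68 stayed between 1.795 and 2.63 CPM in all 10 libraries, and Lyz2 was above 1 CPM, and at most 2.25 CPM, in the wild-type and T567D lines and 0.174 to 0.752 CPM in the other 6 libraries. The 5 neutrophil markers summed to 0.639 and 0.758 CPM in parental cells, 1.04 to 2.86 CPM in the empty-vector, wild-type and T567D lines and 3.80 and 4.51 CPM in the T567A line, with Elane and Mpo at 0 in all 10 libraries. Ly6g made up most of the T567A sum (3.66 and 4.23 CPM), while S100a8 stood there at 0.138 and 0.167 CPM. The 4 endothelial markers summed to 1.38 to 2.31 CPM and the 4 epithelial markers to at most 0.501 CPM. The part of these signals in the Mmp9 values was not tested.

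MMP3, or stromelysin, cuts proteoglycans and fibronectin and can activate other metalloproteinase zymogens. Mmp3 stood at 8.43 and 7.00 CPM in parental libraries, 44.4 and 41.7 with the empty vector, 27.4 and 34.05 with wild-type ezrin, 35.3 and 37.0 with T567A and 43.4 and 37.75 with T567D. Every derived library lay well above the parental ones, and the wild-type libraries were the lowest of the derived ones. The log2 fold change against parental cells ran from 1.99 ± 0.12 in the wild-type line to 2.48 ± 0.12 in the empty-vector line, which is 5.57-fold (edgeR adjusted p = 3.82e-13).

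Among derived lines, Mmp3 was lower in wild type than in empty vector by 0.49 ± 0.099 on the log2 scale (edgeR adjusted p = 0.0019), which did not pass once wild-type replicate 1 was left out (adjusted p = 0.070). It was higher in T567D than in wild type by 0.40 ± 0.099 (edgeR adjusted p = 0.047), which was kept in 5 of 19 alternatives. That call was lost without parental replicate 1 or 3 (adjusted p = 0.0557 and 0.0556), empty-vector replicate 2 or 3 (0.0747 and 0.0738), wild-type replicate 1 (0.598) and T567D replicate 1 (0.45). It was lower in T567A than in empty vector by 0.25 ± 0.098 (edgeR adjusted p = 0.040), kept in 11 of 19, and lost without empty-vector replicate 2 or 3 (0.191 and 0.0583) and without T567A replicate 2 or 3 (0.179 and 0.068). T567A and wild type did not differ beyond the test (edgeR adjusted p = 0.071), though they did without wild-type replicate 3 (0.0149).

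MMP19 cuts basement membrane proteins. Mmp19 stood at 1.98 and 1.40 CPM in parental libraries, 4.635 and 4.22 with the empty vector, 7.27 and 6.23 with wild-type ezrin, 3.52 and 2.56 with T567A and 7.05 and 7.19 with T567D. The wild-type and T567D libraries were the highest and overlapped, the empty-vector ones were in the middle, and the T567A ones lay between those and parental cells. T567A was lower than wild type by 1.17 ± 0.19 on the log2 scale (2.25-fold, edgeR adjusted p = 4.44e-05) and than T567D by 1.25 ± 0.19 (2.37-fold, edgeR adjusted p = 1.57e-05), and both calls held under all 19 alternatives. Against parental cells it rose by 1.39 ± 0.22 in the empty-vector line (edgeR adjusted p = 1.92e-05).

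The smaller differences of Mmp19, which had 24 to 125 counts per library, were less firm. Wild type exceeded empty vector by 0.61 ± 0.17 on the log2 scale (edgeR adjusted p = 0.019), kept in 13 of 19 alternatives. That call was lost without empty-vector replicate 2 or 3 or wild-type replicate 1 (log2 differences 0.67, 0.53 and 0.49). It was also lost with a replicate block (edgeR adjusted p = 0.058), limma on log2(RPKM + 0.1) (adjusted p = 0.0575) and DESeq2 (adjusted p = 0.166). T567D exceeded empty vector by 0.68 ± 0.17 (edgeR adjusted p = 0.0081). This difference was not called without empty-vector replicate 3 or T567D replicate 3 (log2 differences 0.61 and 0.66), nor by DESeq2 (adjusted p = 0.0973). T567A was below empty vector by 0.56 ± 0.20 (edgeR adjusted p = 0.027). This difference was not called without empty-vector replicate 2 or T567A replicate 3 (log2 differences -0.50 and -0.33), nor by DESeq2 (adjusted p = 0.155). T567A exceeded parental cells by 0.83 ± 0.24 (edgeR adjusted p = 0.0057), lost without parental replicate 3 (0.0829) or T567A replicate 2 (0.0791). Mmp19 shares 789 exonic bases with Tmem198b on the other strand, whose counts (178 to 371) were higher than its own, and whether the counting used the strand is not given in the sources used here. Tmem198b moved in the same direction, by 0.76 with the empty vector relative to parental cells and by -0.51 in T567A against wild type (edgeR adjusted p = 1.68e-05 and 0.0014). It was not called in wild type minus empty vector (0.071, edgeR adjusted p = 0.721) or T567D minus empty vector (-0.050, edgeR adjusted p = 0.80), where Mmp19 was. The counts of the pair are uncertain.

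MMP23 is an atypical membrane-bound member of the family. Mmp23 had 12 and 16 counts in parental libraries, 0 and 1 with the empty vector, 0 and 0 with wild-type ezrin, 0 and 0 with T567A and 1 and 2 with T567D. It was near the detection floor everywhere but in parental cells, through which alone it passed the filter. By counts, parental cells stood 28.5-fold (95% interval 4.72 to 1166) above the empty-vector line, 9.36-fold (2.89 to 48.1) above the T567D line, at least 9.43-fold above the wild-type line and at least 8.82-fold above the T567A line, the last 2 against a floor of 3 counts over the line. These ratios describe the counts and carry no test, since the derived libraries of a gene that passes the filter in that way had to lie below the parental ones. No difference among derived lines was detectable at these counts.

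**Figure D2:**
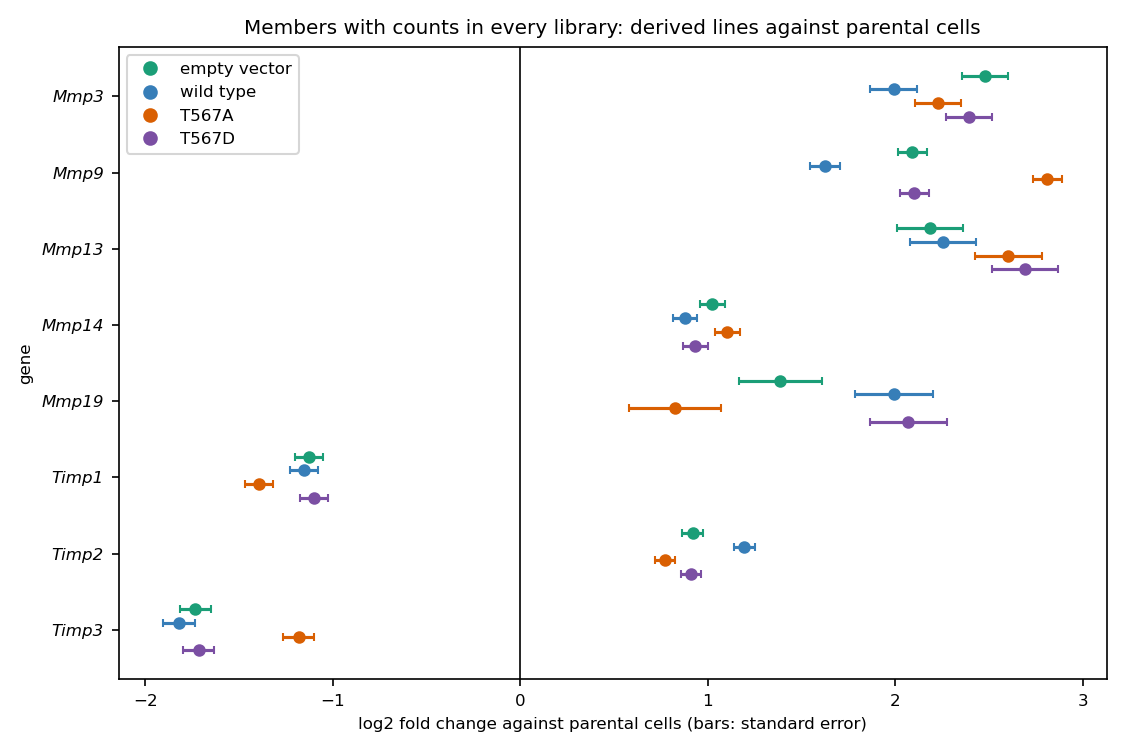
Log2 fold change of 8 members in each derived line against parental cells, with a point per line (color) and a bar of 1 standard error from edgeR; Mmp2 and Mmp23 are left out because their counts fall to 0 in some libraries. Mmp3, Mmp9, Mmp13, Mmp14, Mmp19 and Timp2 lie to the right of 0 and Timp1 and Timp3 to the left for all 4 lines, with T567A farthest right for Mmp9 and closest to 0 for Mmp19, Timp2 and Timp3.

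The 3 inhibitors did not move together. TIMP1 is a secreted inhibitor that binds the MMP9 zymogen and is a weak inhibitor of MMP14. Timp1 stood at 72.2 and 77.6 CPM in parental libraries, 35.0 and 33.55 with the empty vector, 33.05 and 34.3 with wild-type ezrin, 27.6 and 29.4 with T567A and 35.6 and 34.4 with T567D. Parental cells were highest, the T567A libraries were lowest without overlap, and the other 3 lines lay close together. It fell by 1.13 ± 0.074 on the log2 scale in the empty-vector line, to 0.458 of the parental level (edgeR adjusted p = 3.12e-11), and by 1.39 ± 0.076 in the T567A line (edgeR adjusted p = 1.23e-12).

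Timp1 was lower in T567A than in T567D by 0.29 ± 0.081 on the log2 scale (edgeR adjusted p = 0.0056), a call that held under all 19 alternatives. It was lower in T567A than in wild type by 0.24 ± 0.081 (edgeR adjusted p = 0.023), kept in 13 of 19. That call was lost without wild-type replicate 1 or 3 or T567A replicate 2 (log2 differences -0.27, -0.22 and -0.19). A replicate block, only the 4 libraries compared, and DESeq2 lost it too (edgeR adjusted p = 0.0782 and 0.0526, DESeq2 adjusted p = 0.0751). The gene was Timp1 in each case. It was lower in T567A than in empty vector by 0.26 ± 0.081 (edgeR adjusted p = 0.011), lost without empty-vector replicate 2 (0.0727) or T567A replicate 2 (0.0817). The gene lies inside Syn1 on the other strand with 0 shared exonic bases. Syn1 had 5 to 130 counts and also fell in the empty-vector line, by 3.97 on the log2 scale (edgeR adjusted p = 8.81e-11).

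TIMP2 is a secreted inhibitor that also serves as the adaptor between MMP14 and the MMP2 zymogen. Timp2 stood at 781 and 753.5 CPM in parental libraries, 1450 and 1454 with the empty vector, 1783 and 1731 with wild-type ezrin, 1300 and 1322 with T567A and 1419 and 1466 with T567D. Unlike the other 2 inhibitors it was lowest in parental cells, and wild type was highest without overlap. It rose by 0.92 ± 0.055 on the log2 scale in the empty-vector line (1.89-fold, edgeR adjusted p = 6.7e-12) and by 1.20 ± 0.055 in the wild-type line (2.29-fold, edgeR adjusted p = 1.18e-13).

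Timp2 differed in 5 of the 6 comparisons among derived lines. Wild type exceeded empty vector by 0.28 ± 0.055 on the log2 scale (edgeR adjusted p = 0.0015), and T567A fell below wild type by 0.42 ± 0.055 (edgeR adjusted p = 3.14e-06); these 2 held under all 19 alternatives. T567D was below wild type by 0.28 ± 0.055 (edgeR adjusted p = 0.0072), kept in 14 of 19. That call was lost without wild-type replicate 1 or 3 or T567D replicate 1 (log2 differences -0.26, -0.30 and -0.26). Both limma fits on RPKM lost it too (adjusted p = 0.0605 and 0.0706). T567A was below empty vector by 0.15 ± 0.055 (edgeR adjusted p = 0.032), kept in 12 of 19 and lost without either parental library (0.0547 without replicate 1 and 0.0539 without replicate 3), either empty-vector library (0.0937 and 0.0974) and T567A replicate 2 (0.113). T567A was below T567D by 0.14 ± 0.055 (edgeR adjusted p = 0.046), kept in 7 of 19, and lost in 9 of the 10 fits that left out a library, all but the one without T567A replicate 3, with adjusted p from 0.0572 to 0.196. Only the empty-vector and T567D lines did not differ beyond the test (log2 difference -0.0093 ± 0.055, edgeR adjusted p = 0.930).

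TIMP3 binds to the matrix and also blocks ADAM proteases. Timp3 stood at 1367 and 1469 CPM in parental libraries, 415 and 439 with the empty vector, 378 and 426 with wild-type ezrin, 682 and 569 with T567A and 452 and 413 with T567D. Parental cells were highest, T567A came next without overlap, and the other 3 lines overlapped. It fell by 1.73 ± 0.083 on the log2 scale in the empty-vector line, to 0.301 of the parental level (edgeR adjusted p = 6.7e-12), and by 1.18 ± 0.081 in the T567A line (edgeR adjusted p = 8.51e-10). T567A exceeded wild type by 0.64 ± 0.081 (1.56-fold, edgeR adjusted p = 8.69e-06), T567D by 0.53 ± 0.081 and empty vector by 0.55 ± 0.081 (edgeR adjusted p = 4.79e-05 and 2.83e-05), and these 3 calls held under all 19 alternatives. Timp3 shares 1733 exonic bases with Syn3 on the other strand, which had 7 to 96 counts against 6499 to 25184 for Timp3. Syn3 was lower in T567A than in wild type by 2.21 on the log2 scale (edgeR adjusted p = 3.52e-05), the opposite direction to Timp3. Against parental cells Syn3 fell as Timp3 did in the empty-vector, wild-type and T567A lines (-1.615, -1.02 and -3.23, edgeR adjusted p = 6.22e-06, 4.7e-04 and 8.6e-09). In the T567D line it was not called (-0.39, edgeR adjusted p = 0.108).

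Fewer members were called among the derived lines than against parental cells. Wild type minus empty vector had 2 members called higher (Mmp19 and Timp2) and 2 lower (Mmp3 and Mmp9), against 8.25% and 7.36% of all tested genes. The share of calls that were higher over all genes in this comparison was 52.85%, and 64.95% with upper-quartile scaling. T567A minus wild type had 3 higher (Mmp9, Mmp14 and Timp3) and 3 lower (Mmp19, Timp1 and Timp2), against 20.4% and 19.1% of all genes. T567D minus wild type had 2 higher (Mmp3 and Mmp9) and 1 lower (Timp2), against 0.818% and 0.524% of all genes, and only the call of Mmp9 was kept under all alternatives.

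T567A minus T567D, the comparison of the 2 substituted forms, had 3 members higher (Mmp9, Mmp14 and Timp3) and 4 lower (Mmp2, Mmp19, Timp1 and Timp2), against 22.5% and 21.6% of all tested genes. T567A minus empty vector had 2 higher (Mmp9 and Timp3) and 4 lower (Mmp3, Mmp19, Timp1 and Timp2), against 23.7% and 22.7%. T567D minus empty vector had 2 higher (Mmp2 and Mmp19) and 0 lower (edgeR, with 0 at an unadjusted p under 0.05 and 0 by DESeq2), against 9.43% and 8.34%, and the share of calls over all genes that were higher was 53.1%, or 63.4% with upper-quartile scaling. The 6 comparisons share libraries with each other. Of 28 calls of members among derived lines, 14 held under every alternative, against 35 of 36 calls in comparisons with parental cells, Mmp23 left out.

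**Figure D3:**
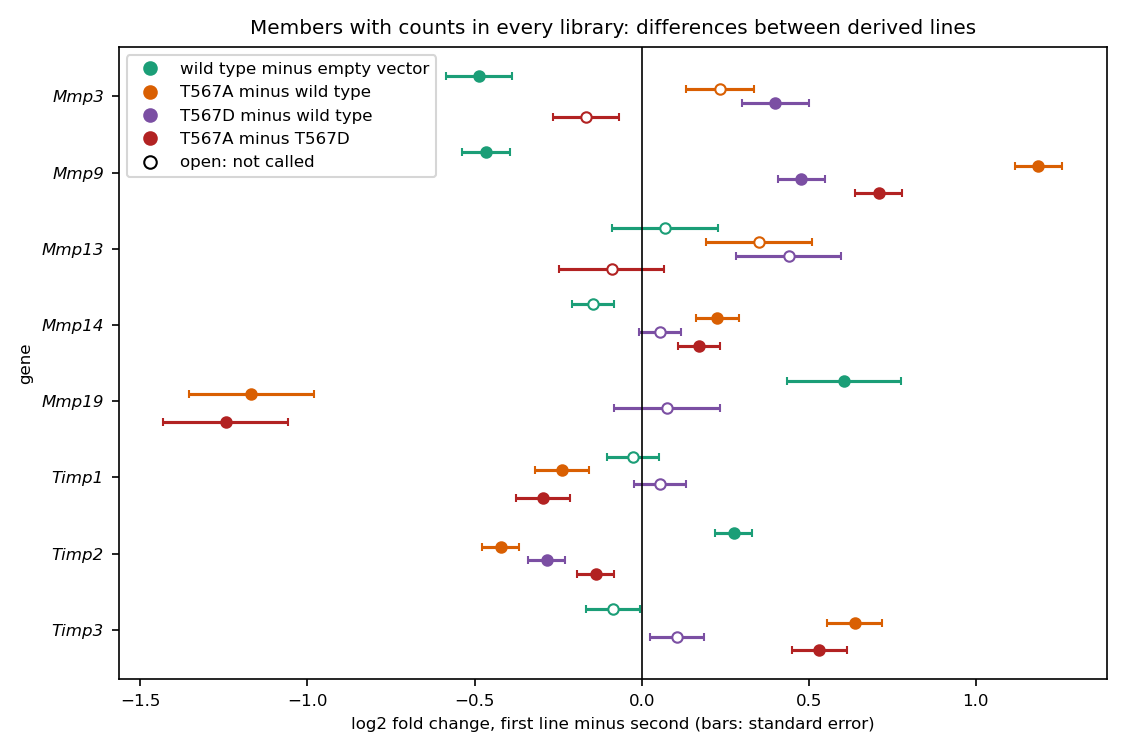
Log2 fold change of 8 members in 4 comparisons among derived lines, with a bar of 1 standard error from edgeR, filled points for calls at an adjusted p under 0.05 and open points for the rest. Mmp9 has 4 filled points, between -0.47 and 1.19, Mmp19 is lowest in both T567A comparisons, and Mmp13 has none.

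Levels per length, in RPKM (counts scaled to gene length and read total), allow the genes to be set against each other. In parental cells Timp2 was highest (183 and 176 RPKM), followed by Timp3 (153 and 164.5) and Timp1 (74.1 and 79.7). Mmp2 was the most abundant of the 7 metalloproteinases there, at 32.5 and 31.6 RPKM, ahead of Mmp14 at 23.5 and 22.0 RPKM. In 7 of the 8 derived libraries Mmp13 was highest of the metalloproteinases (61.5 to 104.8 RPKM over the 8), and in T567A replicate 3 Mmp9 exceeded it (80.9 against 76.4 RPKM).

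The summed RPKM of the 7 metalloproteinases was 86.4 and 81.3 in parental cells and 157 to 229.7 in derived libraries, highest in T567A (229.7 and 228). The summed RPKM of the 3 inhibitors stayed between 409.5 and 511 in all 10 libraries. The ratio of summed TIMP to summed MMP transcripts was 4.74 and 5.17 in parental libraries, 2.36 and 2.41 with the empty vector, 3.25 and 2.98 with wild-type ezrin, 1.79 and 1.80 with T567A and 1.98 and 2.23 with T567D. Parental cells had the highest ratio, wild type the next, and T567A the lowest, with no overlap between any 2 lines; these sums carry no test. The make-up differed too, as Mmp2 was 37.6% and 38.9% of the summed metalloproteinase RPKM in parental cells and at most 0.0997% in derived libraries. Timp2 was 44.6% and 41.9% of the summed inhibitor RPKM in parental cells and 74.4% to 84.5% in derived libraries.

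**Figure D4:**
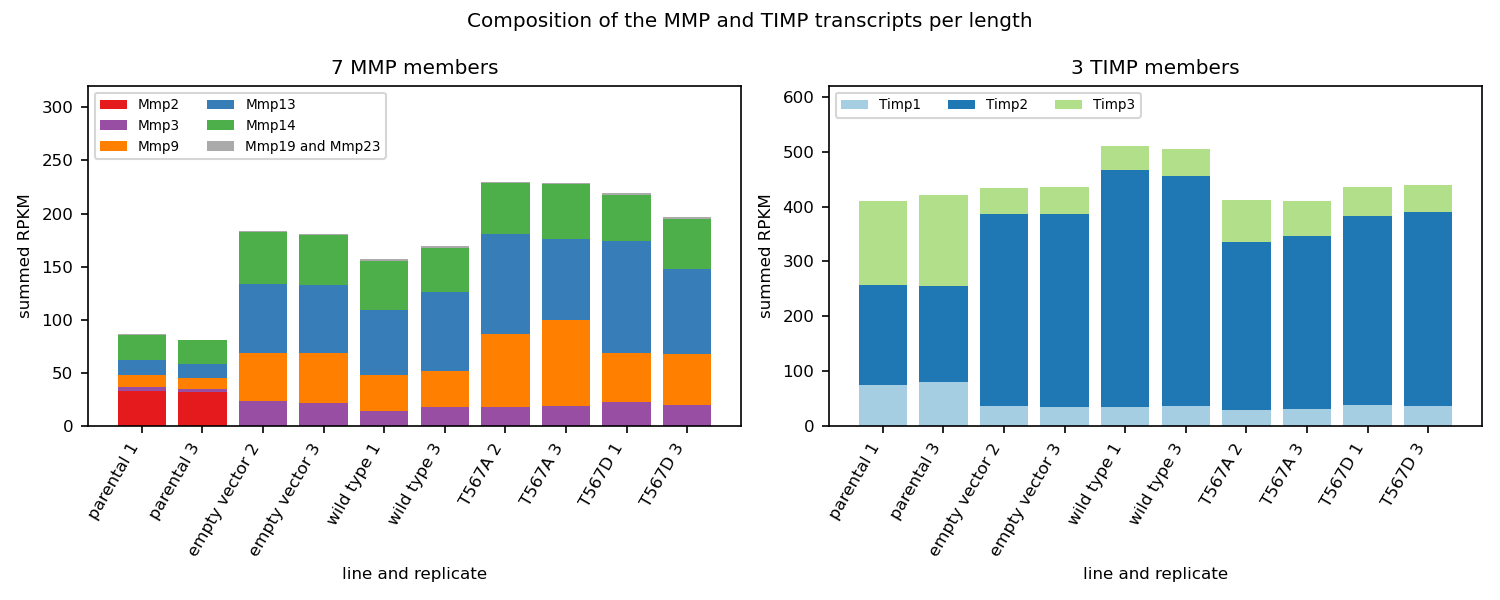
Summed RPKM of the 7 metalloproteinases (left) and the 3 TIMP genes (right) in each of the 10 libraries, stacked by gene on linear axes from 0. The Mmp2 block is seen only in the parental bars, and Timp2 fills most of every derived bar on the right.

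Mmp13 and Mmp3 lie in a run of 10 metalloproteinase genes on chromosome 9 of GRCm38, in the order Mmp13, Mmp12, Mmp1b, Mmp3, Mmp1a, Mmp10, Mmp8, Mmp27, Mmp20 and Mmp7. Mmp13 spans chr9:7272514-7283331 and Mmp3 spans chr9:7445822-7455975, both on the plus strand. Mmp10, a second stromelysin at chr9:7502352-7510240, stood at 8.31 and 6.71 CPM in parental libraries, 24.6 and 25.3 with the empty vector, 27.1 and 28.1 with wild-type ezrin, 20.2 and 21.4 with T567A and 34.25 and 34.6 with T567D. It was lowest in parental cells, as Mmp13 and Mmp3 were, and among derived lines it was highest in T567D and lowest in T567A without overlap. It rose by 1.73 ± 0.11 on the log2 scale in the empty-vector line (edgeR adjusted p = 1.23e-11) and was lower in T567A than in T567D by 0.72 ± 0.090 (edgeR adjusted p = 1.53e-06). T567D did not differ from wild type beyond the test for Mmp10 (log2 difference 0.32 ± 0.086, edgeR adjusted p = 0.074). The other 7 genes of the run had at most 16 counts in any library, and Mmp20 and Mmp7 had 0 in all 10.

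The AP-1 letters TGANTCA were present before a start of 8 of the 10 genes of this run, at 63 bases for Mmp10, against 6.7% of all windows. The 8 include Mmp12, Mmp1a, Mmp20 and Mmp7, which were at or near 0 counts, and leave out Mmp8 and Mmp27. The GC box was present in 0 of the 10 genes, against 32.7% of all windows. Mmp12 and Mmp7 have more than 1 start, and the AP-1 letters stand before only some of these. Shares of genes and of windows are therefore not alike.

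**Figure D5:**
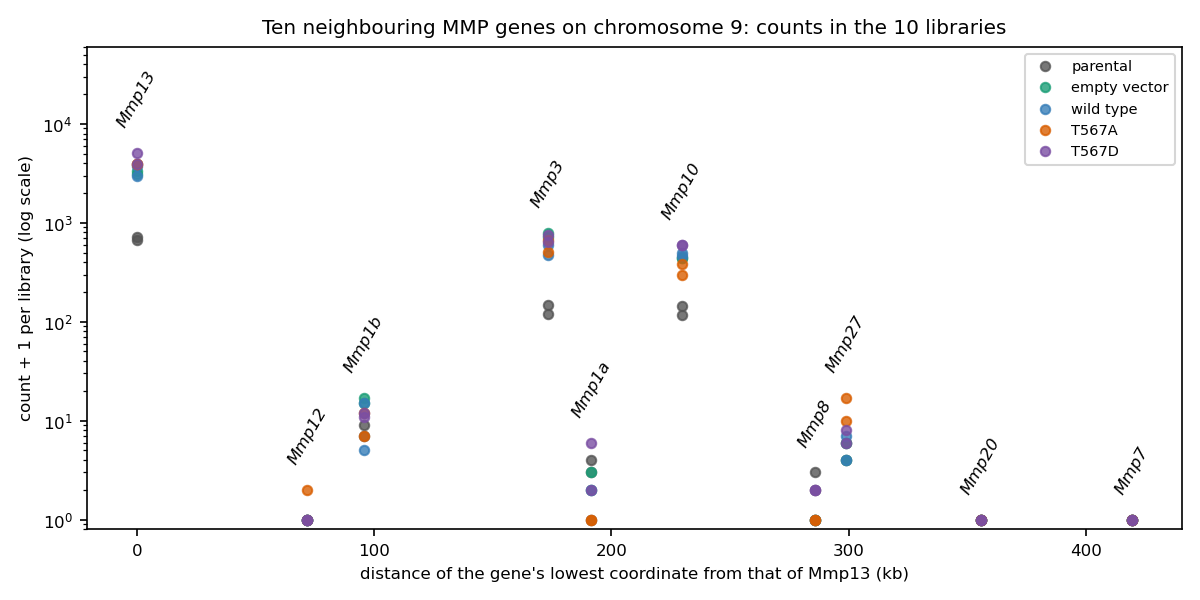
Counts per library plus 1 (log axis) of the 10 neighbouring genes on chromosome 9 against their distance from Mmp13 in kilobases, with a point per library colored by line. Mmp13, Mmp3 and Mmp10 have over 100 counts in each library with the parental points lowest, and the 7 genes among and beyond them have 16 or fewer.

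The remaining members lie apart, on chromosomes 2 (Mmp9, chr2:164940780-164955850), 4 (Mmp23, chr4:155650655-155653384), 8 (Mmp2, chr8:92827291-92853420), 10 (Mmp19, chr10:128790910-128800824, and Timp3, chr10:86300372-86349506), 11 (Timp2, chr11:118301069-118355740), 14 (Mmp14, chr14:54431612-54445364) and X (Timp1, chrX:20870166-20874735). Of 17 other metalloproteinase and TIMP genes, 8 passed the count filter and the other 9, Timp4 among them, had at most 5 counts in any library. Of the 8, Mmp10 rose and Mmp15 and Mmp16 fell with the empty vector relative to parental cells, against 27.4% and 27.2% of all tested genes. Mmp24 was lower as well, at 1.10 and 1.17 CPM in parental libraries and at most 0.514 CPM in derived ones. It passed the filter through parental libraries only, so its derived libraries had to lie below them and it is left out. Mmp24 shares 637 exonic bases with BC029722 on the other strand, which had 965 to 1285 counts, so its value is uncertain. Mmp11 stood at 6.28 and 6.07 CPM in the T567A line against 9.51 to 13.1 in the other 8 libraries, and was lower there than in wild type by 0.85 ± 0.14 on the log2 scale (edgeR adjusted p = 4.07e-05). Mmp15, a membrane-anchored relative of Mmp14, stood at 31.8 and 35.9 CPM in the T567D line against 17.75 to 29.5 elsewhere, and exceeded wild type there by 0.50 ± 0.089 (edgeR adjusted p = 0.0039).

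Genes that act on the zymogens were read as a list, of which 9 of 17 passed the filter. With the empty vector relative to parental cells 4 rose, 1 fell and 4 were not called, against 27.4% higher and 27.2% lower over all tested genes. In T567A against wild type 2 rose, 4 fell and 3 were not called, against 20.4% and 19.1%. Plat, the tissue plasminogen activator, stood at 6.20 ± 0.765 CPM (SD, n = 2) in parental libraries, 29.5 ± 1.49 with the empty vector, 68.2 ± 2.52 with wild-type ezrin, 49.1 ± 0.347 with T567A and 50.7 ± 5.11 with T567D. It rose in all 4 lines against parental cells (edgeR adjusted p from 1.95e-16 to 5.13e-13) and in wild type over empty vector (2.29e-09).

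Of 18 genes for surface anchors, inducers, other inhibitors and clearance, 15 were tested. With the empty vector relative to parental cells 8 rose and 4 fell, against 27.4% and 27.2% of all tested genes, and in T567A against wild type 4 rose and 7 fell, against 20.4% and 19.1%. Lrp1, an endocytic receptor that clears metalloproteinases and their complexes with TIMPs, stood at 341 ± 43.8 CPM in parental cells, 209 ± 18.7 with the empty vector, 249 ± 1.72 with wild-type ezrin, 123 ± 9.01 with T567A and 311.5 ± 23.5 with T567D, and was lower in T567A than in wild type (edgeR adjusted p = 1.24e-07). Thbs1, thrombospondin 1, stood at 1418 ± 96.8 CPM in parental cells, 485 ± 30.5 with the empty vector, 665 ± 0.952 with wild-type ezrin, 1617 ± 30.4 with T567A and 744 ± 32.7 with T567D. It was higher in T567A than in wild type (edgeR adjusted p = 1.37e-12), and the other 3 derived lines lay well below parental cells.

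By Pearson's r of log2 CPM over the 10 libraries, among 9088 genes, the gene most like Mmp2 was Ass1 (r = 0.994), which stood at 244 CPM in parental cells and 3.34 to 7.29 CPM in the derived lines. The gene most like Mmp9 was Plcg1 (r = 0.984), like Mmp13 S100a13 (0.990), like Mmp3 Tapt1 (0.988), like Mmp14 Sec24d (0.990) and like Mmp19 Svil (0.983). The inhibitors were each closest to another gene, Timp1 to Dtnb (0.996), Timp2 to Ecm1 (0.987) and Timp3 to Rap2c (0.995). These values describe 10 libraries that fall into parental and derived groups, and any gene that separates those groups has a high r.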

How the data were processed

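Poly-A RNA of 5 K7M2 lines, 2 libraries each, was made into strand-marked (dUTP) libraries and sequenced, per the labels' protocols. The authors deposited raw counts per gene name, which are whole numbers whose total differs between libraries. They also deposited RPKM values per gene and library, which equal the count times a constant per gene length and library. Per the submitters' processing notes the build was GRCm38. The sources used here do not give the aligner, counting tool, annotation release or strand setting, and counts of overlapping or antisense genes are uncertain for that reason. No 2 libraries held identical counts, and all pairs within a line differed beyond sampling noise.

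Groups and replicate numbers came from the labels. The members and gene lists were chosen with earlier results of these data known, so agreement with those results is no independent support. The named genes were the 10 members, Ezr, the tested genes among 17 other metalloproteinase and TIMP genes, up to 5 genes of each list called in most comparisons, and the genes most like each member by Pearson's r. Not every gene this rule names is reported here. The test was edgeR 4.0.16's quasi-likelihood test (R 4.3.3), in a robust fit of all 10 libraries with TMM scaling and 5 residual degrees of freedom, over 10 comparisons. filterByExpr (minimum count 10, minimum total 15) left 12595 genes. Calls are two-sided at a Benjamini-Hochberg adjusted p under 0.05. A log2 fold change is named first line minus second line, and its standard error was taken from the F statistic. Ratios with few counts have exact 95% binomial intervals, which cover counting error only. The lists of substrates, transcription factors, activators, surface genes and cell type markers were counted and given no set test.

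The 19 alternatives were RLE or upper-quartile scaling, no filter or 5 CPM in 2 libraries, a replicate block, only the 4 libraries compared, limma 3.58.1 on log2(RPKM + 1) or log2(RPKM + 0.1), DESeq2 1.42.0, and leaving out each library. The fit was tested on simulated counts of 12595 genes: with 100 genes changed 1.5-fold and 100 changed 2-fold, it recovered 76% and 87% in empty vector minus parental, with 15 false calls of 178, and 80% and 84% in T567A minus wild type, with 13 of 177. In the data far more genes were called in these comparisons, 6879 and 4983, so the simulated rates may not hold there. Promoter windows came from RefSeq on GRCm38.p6, and gene positions from GENCODE on GRCm38.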

Additional observations from a re-analysis of the deposited data

How the results depend on the processing

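Of 99 member and comparison pairs with a fold, 68 were called (4 of them Mmp23 against parental cells), and 52 of these held under every alternative that gave a value. Counts of called members in the 4 comparisons with parental cells were 9 or 10 of 10 without any 1 library. The replicate numbers are shared labels only: the 2 libraries of lines with the same numbers did not deviate together (correlations -0.0995 to -0.0074 over 12595 genes), and with the replicate number as a block T567A minus T567D had 4 called members in place of 7. T567D minus wild type had 3 called members, and 1 in each limma fit on RPKM. Without 1 library the number of called members ran from 2 to 4 in wild type minus empty vector (2 without wild-type replicate 1), from 1 to 3 in T567D minus wild type (1 without wild-type replicate 1 or T567D replicate 1), from 2 to 7 in T567A minus empty vector (2 without empty-vector replicate 2) and from 1 to 3 in T567D minus empty vector (1 without empty-vector replicate 3).

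No called value changed sign. Among uncalled log2 differences, the block gave 0.065 for Mmp2 in T567A minus wild type and -0.065 for Mmp9 in T567D minus empty vector. Upper-quartile scaling gave 0.0083 for Timp1 in wild type minus empty vector and 0.017 for Timp2 in T567D minus empty vector, and the filter of 5 CPM gave 0.010 for the latter. Without 1 library, the range crossed 0 for Mmp2 in T567A minus wild type (-1.64 to 0.27), Mmp13 in wild type minus empty vector (-0.088 to 0.20) and in T567A minus T567D (-0.28 to 0.11), Mmp14 in T567D minus wild type (-0.0081 to 0.12), Mmp19 in T567D minus wild type (-0.028 to 0.19) and Timp1 in wild type minus empty vector (-0.065 to 0.00011). It also crossed 0 in T567D minus empty vector for Mmp3 (-0.20 to 0.0073), Mmp9 (-0.025 to 0.038), Timp1 (-0.0082 to 0.056), Timp2 (-0.037 to 0.0082) and Timp3 (-0.054 to 0.080). The cause of these changes was not tested. Depth limits 2 members most: Mmp2 had at most 13 counts and Mmp23 at most 2 in any derived library.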

Other observations

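The matrix proteins that metalloproteinases cut changed in both directions. Of 20 listed substrates, 17 were tested. With the empty vector relative to parental cells 7 rose and 9 fell, against 27.4% and 27.2% of all tested genes, and in T567A against wild type 3 rose and 7 fell, against 20.4% and 19.1%. Fn1, fibronectin, stood at 93.0 ± 15.0 CPM (SD, n = 2) in parental libraries, 129 ± 14.8 with the empty vector, 168 ± 7.37 with wild-type ezrin, 50.6 ± 1.03 with T567A and 265 ± 3.44 with T567D. It was lower in T567A than in wild type (edgeR adjusted p = 8.41e-10) and higher in T567D than in wild type (8.7e-04). For Fn1 the 2 substituted forms thus lay on either side of wild type, as for Bgn (edgeR adjusted p = 7.4e-04 and 0.015). Col1a1 differed, at 259 ± 17.6 CPM with wild-type ezrin, 603 ± 7.94 with T567A and 735 ± 83.9 with T567D. Both substituted forms stood above wild type there (edgeR adjusted p = 1.42e-11 and 1.37e-11). Col5a1 and Spp1 were called against wild type in T567A only.

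Of 20 transcription factors known to act on metalloproteinase promoters, 19 were tested. With the empty vector relative to parental cells 10 rose and 1 fell, against 27.4% and 27.2% of all tested genes, and in T567A against wild type 2 rose and 11 fell, against 20.4% and 19.1%. Fosl2, an AP-1 subunit, stood at 139 ± 2.97 CPM in parental libraries, 308.5 ± 4.58 with the empty vector, 302 ± 9.09 with wild-type ezrin, 245 ± 3.15 with T567A and 304 ± 3.39 with T567D. It rose with the empty vector relative to parental cells (edgeR adjusted p = 5.13e-13) and was lower in T567A than in wild type (2.4e-04). Ets2 stood at 211 ± 1.46 CPM in the T567A line and 113 ± 1.16 in the wild-type line, a rise (edgeR adjusted p = 1.37e-10), while Etv4 at 5.37 ± 0.363 against 11.5 ± 0.624 CPM and Etv5 at 16.1 ± 0.177 against 27.9 ± 0.814 CPM fell (2.12e-06 and 4.47e-07). Their part in the metalloproteinase values was not tested.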
